A study of Mus musculus with 7 samples.

Results

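The genes described here encode the enzymes that turn acetyl-CoA into cholesterol, the SREBP-2 machinery that sets their transcription, and the proteins that move and esterify the product. They were taken by symbol from a list of 29 names, and all 29 were found among the 14889 genes of the deposited count table. Liver mRNA was sequenced from ApoE-/- mice of the C57BL/6 strain that were 4 months old and had been fed a Western diet for 3 months. Of these, 3 received PX-478 at 40 mg/kg and 4 received saline, both by intraperitoneal injection on a schedule the labels call bi-weekly. Every mouse, the saline controls included, therefore lacked apolipoprotein E, by which the liver recognises and clears lipoprotein remnants, and ate the cholesterol-rich diet, and no wild-type or chow-fed group was used here. PX-478 serves as a HIF-1α inhibitor, and HIF-1α is the factor that switches on genes when oxygen is short. The comparison asks how liver transcripts differ between mice given the drug and mice given saline.

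Cholesterol is built in the endoplasmic reticulum and cytosol from acetyl-CoA through mevalonate, farnesyl pyrophosphate, squalene and lanosterol. When sterols in the endoplasmic reticulum run low, the escort protein SCAP carries SREBP-2 to the Golgi, where proteases free its transcription factor domain, which then raises the transcription of nearly every enzyme of the route. When sterols are plentiful, the anchor proteins INSIG-1 and INSIG-2 hold SCAP back, and dietary cholesterol taken up by the liver is stored as esters. Not every step of the route is analysed here.

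Each library held between 10285776 and 17257304 counted reads, taken here and below as the rounded mean of 2 count columns per sample. Levels are given as CPM, read counts relative to a library size scaled by trimmed mean of M-values. All 29 genes passed the filter on low counts, with 22 to 3030 reads per library, against a level of 3 reads that corresponds to 0.188 to 0.260 CPM. Mitochondrially encoded genes took 22.4% to 36.7% of the reads in PX-478 libraries and 27.1% to 31.9% in saline libraries. Hepatocyte markers were present, with 11 of 12 tested and summed levels of 26568 to 28661 CPM in PX-478 and 28720 to 40480 CPM in saline, which did not overlap. Of these markers 9 of 11 had negative log2 fold changes, with a median of -0.36. Without overlap, 3 were lower in PX-478 (27.3%, beside 4.29% of all genes tested). The part of this difference in the values of the sterol genes was not tested. In whole liver, fewer cells of a type and less RNA per cell cannot be told apart.

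Along the route to cholesterol most genes differed between the groups by less than the spread between livers, while Fdft1, the squalene synthase gene, and Insig2, one of the anchor genes, had values that did not overlap. Fdft1 stood at 52.7 ± 15.5 CPM in PX-478 and 25.5 ± 2.57 CPM in saline (SD, n = 3 and 4). Insig2 stood at 22.7 ± 4.82 CPM in PX-478 and 72.6 ± 37.7 CPM in saline. Srebf2, which encodes SREBP-2 itself, stood at 15.9 ± 2.14 CPM in PX-478 and 14.4 ± 1.00 CPM in saline. In edgeR's quasi-likelihood test none of the 29 passed an adjusted p of 0.05, and 1 gene of the 13693 tested did (0.00730%), which was Cfd. At an unadjusted p under 0.05 there were 2 of the 29, Fdft1 and Insig2, or 6.90%, beside 6.97% of all genes tested. By direction they were 1 higher and 1 lower in PX-478, beside 3.48% of all genes in each direction. The groups did not overlap in the same genes, 1 higher and 1 lower in PX-478, beside 8.59% of all genes tested (4.30% higher and 4.29% lower). Both shares are near those of all genes, so they are no result about the pathway. limma-voom also called 0 of the 29. DESeq2 called both Fdft1 and Insig2, beside 46 genes higher and 37 lower in PX-478 among the 13693 tested. By the DESeq2 calls the share was larger among the 29 than among all genes, and no test was made of that. Of the 29, 18 had a log2 fold change above 0, or 62.1%, beside 49.7% of all genes, and the median was 0.12 beside -0.0035 over all genes.

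**Figure D1:**
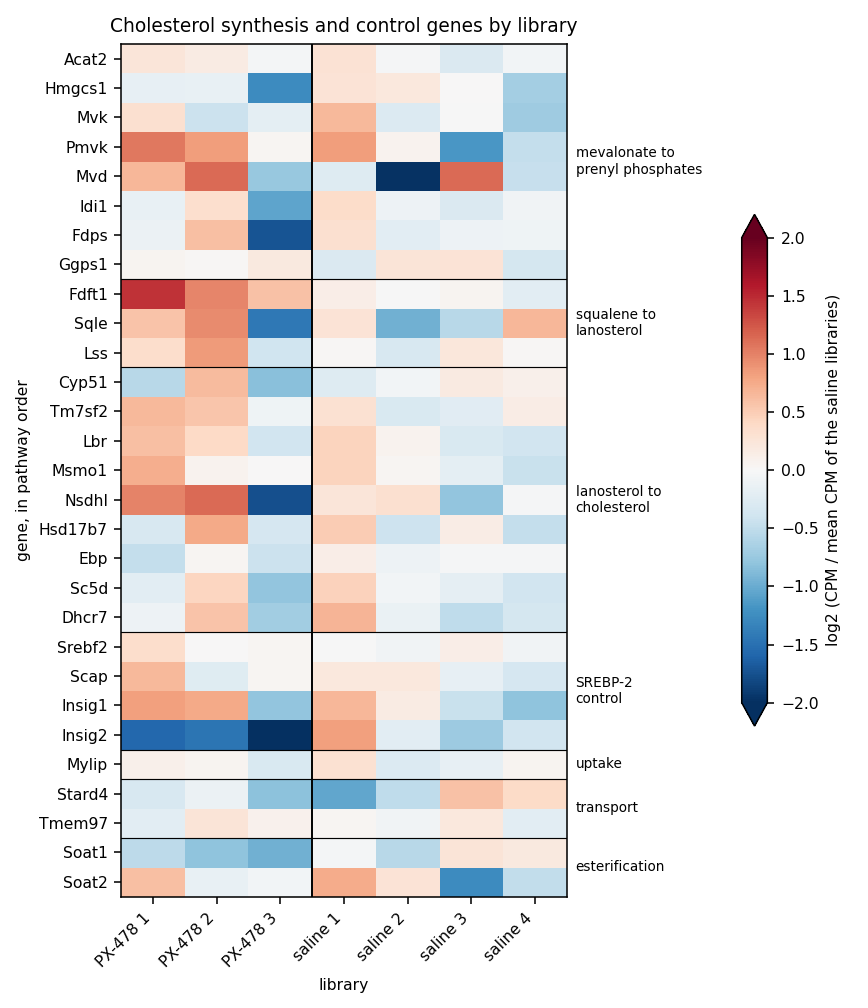
Level of each gene in each library relative to the mean of the saline libraries (colour, log2 ratio of CPM), with genes in pathway order down the page and the 3 PX-478 libraries left of the 4 saline libraries. Insig2 is below the saline mean in all 3 PX-478 libraries and Fdft1 above it, while PX-478 3 is low for most enzymes.

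The first stretch of the route, from acetyl-CoA to the prenyl phosphates, was measured by 8 genes, of which 4 had positive and 4 negative log2 fold changes, with a median of 0.01. Acat2 encodes the cytosolic thiolase that joins acetyl-CoA units, and is not to be confused with the esterifying enzyme that shares its name. It stood at 51.0, 48.6 and 42.3 CPM in PX-478 and at 53.1, 42.5, 35.6 and 41.8 CPM in saline. The groups overlapped, and the neighbouring gene Acat3 is a close copy, so the split of reads between both is uncertain. Hmgcs1, the cytosolic HMG-CoA synthase, stood at 95.2, 96.4 and 44.8 CPM in PX-478 and at 129, 124, 107 and 66.9 CPM in saline. Its PX-478 mean of 78.8 CPM lay below the saline mean of 107 CPM, but saline 4 fell between the PX-478 values, and the log2 fold change of -0.44 had a 95% interval of -1.08 to 0.19.

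Mvk, mevalonate kinase, ranged from 3.63 to 6.13 CPM in PX-478 and from 3.01 to 7.68 CPM in saline. Pmvk, phosphomevalonate kinase, stood at 11.1, 9.53 and 5.48 CPM in PX-478 and at 9.51, 5.55, 2.38 and 3.82 CPM in saline (log2 fold change 0.71, SE 0.42). Mvd, the decarboxylase that makes isopentenyl pyrophosphate, spread widest among saline livers, at 7.36, 2.26, 19.4 and 6.39 CPM, and stood at 14.1, 19.4 and 5.22 CPM in PX-478. The highest saline value was 8.59 times the lowest, and the log2 fold change was 0.53 (SE 0.68). Idi1, which isomerises isopentenyl pyrophosphate, lay at 3.12 ± 1.39 CPM in PX-478 and 3.54 ± 0.712 CPM in saline.

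Fdps, farnesyl pyrophosphate synthase, stood at 47.2, 77.3 and 15.4 CPM in PX-478 and at 64.1, 44.3, 47.9 and 48.4 CPM in saline. Saline livers lay close together, whereas the PX-478 livers held both the highest and the lowest value of all 7, a 5.02-fold range. The log2 fold change was -0.13 (SE 0.44). Of the 1453 exon bases of Fdps, 1124 are shared with the annotated gene Gm43738 on the same strand, so its counts are uncertain. Ggps1, which draws farnesyl pyrophosphate off towards geranylgeranyl pyrophosphate for protein prenylation and so is not on the direct route to sterols, stood at 8.92, 8.77 and 9.92 CPM in PX-478 and at 7.03, 10.3, 10.4 and 6.77 CPM in saline.

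The commitment to sterols is made at squalene synthase, encoded by Fdft1 (Entrez Gene 14137, chromosome 14 from 63145150 to 63181687 in mm10, minus strand). Fdft1 stood at 69.2, 50.3 and 38.5 CPM in PX-478 and at 28.0, 25.5, 26.6 and 22.0 CPM in saline. All 3 PX-478 values lay above all 4 saline values, and the ratio of the means was 2.06. On the log2 scale the difference was 1.05 with an SE of 0.21 (95% interval 0.58 to 1.51), and by edgeR's quasi-likelihood test the adjusted p was 0.195, with a p that ranked 22 from the smallest among all genes tested. DESeq2 gave an adjusted p of 0.00806, and over the 19 alternatives the adjusted p ran from 0.00806 to 0.909 and the log2 fold change from 0.80 to 1.23. The exons of Fdft1 share 774 bases, of 3698 in all, with the cathepsin B gene Ctsb on the opposite strand, and reads there cannot be told apart without strand. Opposite-strand genes also share 557 exon bases with Hmgcs1, 785 with Scap, 381 with Lss, 323 with Idi1 and 166 with Cyp51, and Tm7sf2 shares 14 with a gene on its own strand. Ctsb itself stood at 263 ± 49.2 CPM in PX-478 and 384 ± 17.6 CPM in saline.

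For the genes that follow Fdft1 in the route the groups overlapped. Sqle, squalene epoxidase, stood at 5.71, 7.41 and 1.44 CPM in PX-478 and at 4.69, 1.99, 2.64 and 6.14 CPM in saline (log2 fold change 0.32, SE 0.53). Lss, lanosterol synthase, stood at 17.3, 24.4 and 10.2 CPM in PX-478 and at 13.7, 10.8, 15.9 and 13.7 CPM in saline (0.35, SE 0.28). For both genes all 4 saline values lay inside the range of the PX-478 values. Whether the log2 fold change of Fdft1 differs from those of its neighbours was not tested.

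From lanosterol to cholesterol 9 genes were measured, of which 6 had positive and 3 negative log2 fold changes, with a median of 0.12 and 0 at an unadjusted p under 0.05. Cyp51, the lanosterol demethylase, stood at 8.57, 19.5 and 7.05 CPM in PX-478 and at 10.6, 12.1, 14.2 and 13.5 CPM in saline. The saline values sat between the extremes of PX-478. Tm7sf2 and Lbr encode reductases of the same next step, and Lbr is also the lamin B receptor of the nuclear envelope. Tm7sf2 stood at 41.9, 39.2 and 25.1 CPM in PX-478 and at 33.0, 21.7, 22.9 and 29.6 CPM in saline, with a log2 fold change of 0.40 (95% interval -0.10 to 0.90). Lbr stood at 8.78, 7.64 and 4.44 CPM in PX-478 and at 7.88, 6.07, 4.69 and 4.45 CPM in saline, with a log2 fold change of 0.27.

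Msmo1, Nsdhl and Hsd17b7 act in sequence to remove methyl groups from the sterol ring. Msmo1, the methylsterol oxidase, stood at 21.5, 13.6 and 13.1 CPM in PX-478 and at 17.8, 13.4, 11.4 and 9.52 CPM in saline. Nsdhl, the dehydrogenase, stood at 22.9, 25.1 and 3.39 CPM in PX-478 and at 13.7, 14.4, 6.68 and 11.3 CPM in saline. Of all 29 genes Nsdhl had the widest range among PX-478 livers, 7.40-fold, with the libraries on both sides of the saline range, and its log2 fold change of 0.57 (SE 0.58) was 1.06 without PX-478 replicate 3. Hsd17b7, the keto-reductase, ranged from 6.26 to 13.2 CPM in PX-478 and from 5.64 to 11.2 CPM in saline.

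Ebp, the sterol isomerase, was the most abundant of the 29 per length in saline livers. It stood at 67.9, 97.0 and 70.1 CPM in PX-478 and at 104, 87.8, 93.1 and 93.3 CPM in saline, with a log2 fold change of -0.27 (95% interval -0.68 to 0.13). PX-478 replicate 2 lay within the saline range and the others below it. Sc5d, the desaturase, stood at 124, 192 and 83.1 CPM in PX-478 and at 197, 138, 127 and 109.5 CPM in saline. Dhcr7, which reduces 7-dehydrocholesterol to cholesterol, stood at 30.7, 49.1 and 20.4 CPM in PX-478 and at 53.0, 30.0, 23.2 and 26.0 CPM in saline. The log2 fold change of Dhcr7 was 0.01 (SE 0.34), the nearest to 0 of the pathway.

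**Figure D2:**
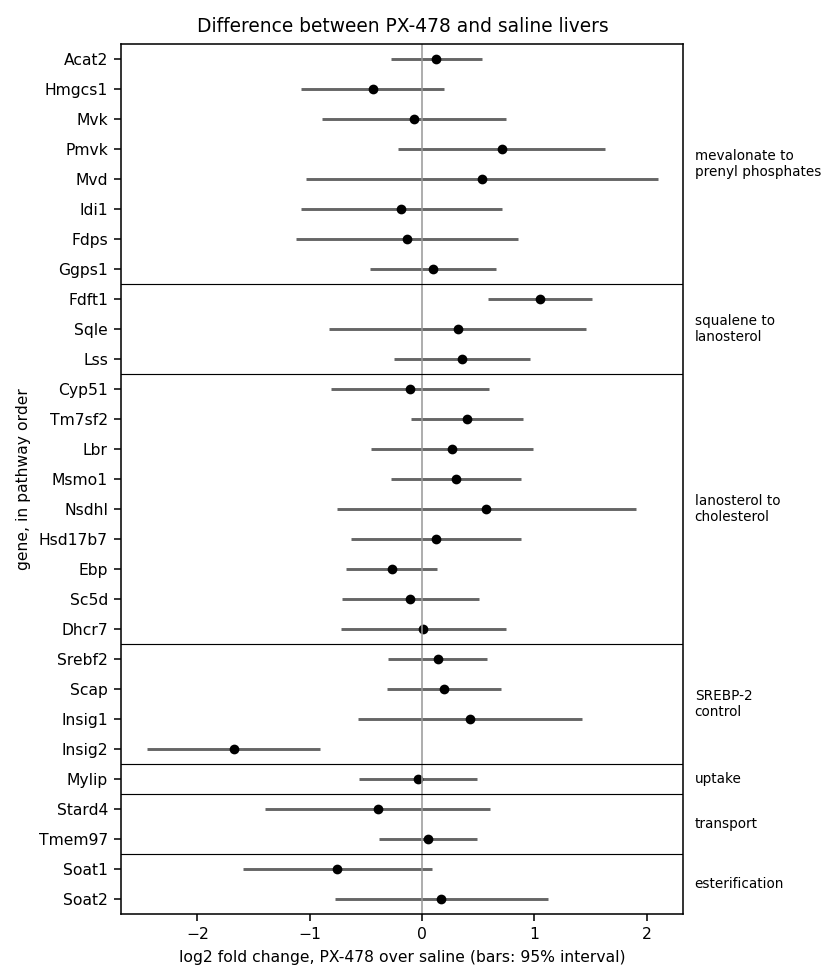
Difference of PX-478 from saline on the log2 scale (points) with 95% intervals (bars) for each gene in pathway order. Of the 29 intervals, those of Fdft1 at 0.58 to 1.51 and Insig2 at -2.45 to -0.91 do not include 0.

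The enzymes tended to be high or low in the same livers, in both groups. Within the PX-478 group, replicate 3 was the lowest of the 3 libraries for 17 of the 20 enzymes, where 33.4% of all genes tested were lowest in it, and replicate 2 was the highest for 12 of 20, beside 34.6% of all genes. Within the saline group, replicate 1 was the highest of the 4 for 14 of 20 enzymes, beside 26.8% of all genes. The summed level of the 20 enzymes was 662, 807 and 412 CPM in PX-478 and 777, 604, 587 and 525 CPM in saline, so both the highest and the lowest sum belonged to PX-478. Relative to its mean over the 7 libraries, the median enzyme stood at 0.19, 0.45 and -0.54 on the log2 scale in PX-478 replicates 1 to 3, and at 0.28, -0.12, -0.17 and -0.35 in saline replicates 1 to 4. The medians over all genes were between -0.06 and -0.01 in every library.

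The spread between livers was wider for the enzymes than for other genes of at least the level of the lowest member. The median coefficient of variation of the 20 enzymes was 39.2% in PX-478 and 26.6% in saline. Over 10508 genes it was 19.8% in PX-478 and 21.4% in saline. The 10508 genes share only that lowest level and were not matched to the enzymes. The part of expression level in this difference was not tested. Genes of a common route are not independent of each other, so these are descriptions of the livers and carry no test. PX-478 replicate 3 had the most reads, 17257304, and 32.6% mitochondrially encoded reads, and replicate 2 the fewest, 10285776, with 22.4%. The part of depth and mitochondrial share in these differences was not tested. Without PX-478 replicate 3, 6 of the 29 genes had an unadjusted p under 0.05, beside 7.31% of all genes tested in that fit, and 5 of the 6 had positive log2 fold changes. These were Fdft1 at 1.23, Nsdhl at 1.06, Insig1 at 0.79, Lss at 0.62 and Tm7sf2 at 0.60, with Insig2 at -1.51, and none passed after adjustment. Without PX-478 replicate 2, 4 of the 29 had an unadjusted p under 0.05, beside 8.50% of all genes, and these were Fdft1 at 1.08, Ebp at -0.46, Cyp51 at -0.69 and Insig2 at -1.79.

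For the genes of SREBP-2 and its escort SCAP, the groups overlapped. Srebf2 stood at 18.3, 14.4 and 14.8 CPM in PX-478 and at 14.3, 13.7, 15.9 and 13.8 CPM in saline, with a log2 fold change of 0.14 (95% interval -0.30 to 0.58). Scap, the escort gene, stood at 153, 82.9 and 100.2 CPM in PX-478 and at 114, 113, 87.4 and 77.7 CPM in saline, with a log2 fold change of 0.19 (95% interval -0.31 to 0.70). The transcript of SREBP-2 does not show how much of the protein was processed, and protein was not measured.

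The anchor genes had log2 fold changes of opposite sign. Insig1, itself a target of SREBP-2, stood at 205, 198 and 67.4 CPM in PX-478 and at 184, 131, 85.4 and 66.6 CPM in saline. The groups covered nearly the same range, with a log2 fold change of 0.42 (95% interval -0.57 to 1.42). Insig2 (Entrez Gene 72999, chromosome 1 from 121304353 to 121332662 in mm10, minus strand), which depends little on SREBP-2, stood at 24.5, 26.3 and 17.2 CPM in PX-478 and at 128, 62.8, 43.9 and 55.8 CPM in saline. All PX-478 values lay below all saline values, and the PX-478 mean was 0.313 times the saline mean. On the log2 scale the difference was -1.68 with an SE of 0.35 (95% interval -2.45 to -0.91), and by edgeR's quasi-likelihood test the adjusted p was 0.264, with a p that ranked 28 among all genes. DESeq2 gave an adjusted p of 0.000795, and over the 19 alternatives the adjusted p ran from 0.000795 to 0.909 and the log2 fold change from -1.86 to -1.25. Without saline replicate 1, the highest saline library, it was -1.25.

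**Figure D3:**
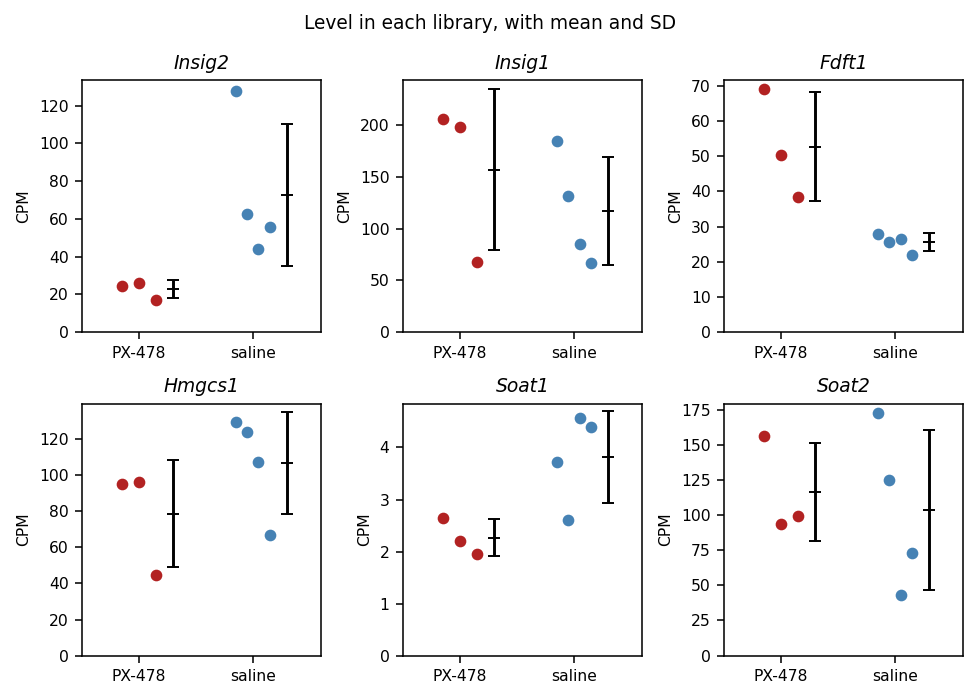
CPM in each library (points) with mean and SD (bars) for 6 genes, PX-478 left of saline. Insig2 lies at 17.2 to 26.3 CPM in PX-478 and 43.9 to 128 CPM in saline and Fdft1 at 38.5 to 69.2 and 22.0 to 28.0 CPM, while the groups overlap for Insig1, Hmgcs1, Soat1 and Soat2.

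Set against each other per kilobase of exon, a comparison chosen after the values were seen, Insig1 was 9.17, 8.23 and 4.28 times Insig2 in the PX-478 livers and 1.58, 2.29, 2.13 and 1.31 times in the saline livers. The lowest PX-478 ratio thus lay above the highest saline ratio, and no test was made of it. In mouse liver, Insig2 is transcribed from alternative starts, of which the liver-enriched form is known to be repressed by insulin, and its transcript is also known to vary with time of day under the clock repressor REV-ERBα. The counts are summed over the gene and do not separate the forms. Of the 11 clock genes tested, 8 had positive log2 fold changes (72.7%, beside 49.7% of all genes), with a median of 0.74. Their summed levels were 1188 to 1706 CPM in PX-478 and 669 to 963 CPM in saline. At an unadjusted p under 0.05 by edgeR, 4 were higher and 1 lower (45.5%, beside 6.97% of all genes). Without overlap, 5 were higher and 1 lower (54.5%, beside 8.59%), and none passed adjustment. Tef and Dbp are rhythmic output factors. Tef stood at 522 ± 109 CPM in PX-478 and 228 ± 48.3 CPM in saline, and Dbp had a log2 fold change of 1.04 (adjusted p of 0.139 for Tef and 0.264 for Dbp). Nr1d1, the gene of REV-ERBα itself, stood at 234, 125 and 138 CPM in PX-478 and at 226, 248, 237 and 95.7 CPM in saline (log2 fold change -0.28, adjusted p = 0.885 by edgeR), so its groups overlapped. The related gene Nr1d2 was higher in PX-478 without overlap, at a log2 fold change of 0.47 (adjusted p = 0.602 by edgeR). Clock was lower in PX-478 without overlap, at a log2 fold change of -1.14 (adjusted p = 0.328 by edgeR). The part of time of day in the Insig2 values was not tested.

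Insig2 carried the largest difference of the pathway. Of the 24 genes with a promoter window at hand, Hmgcs1 alone matched TCACNCCAC, a form of the sterol regulatory element that SREBP binds. The promoters of both genes are therefore shown. Each is the RefSeq window in GRCm38.p6, the assembly behind mm10, from 250 bases before to 50 bases after a transcription start, on the strand of the gene. Capitals mark matches on either strand to TCACNCCAC, a form of the sterol regulatory element, to CCAAT, the site of the SREBP partner NF-Y, and to AGGTCA, a half-site of nuclear receptors that include REV-ERBα. The matches do not overlap each other.
Hmgcs1, chr13:119690101-119690400, plus strand: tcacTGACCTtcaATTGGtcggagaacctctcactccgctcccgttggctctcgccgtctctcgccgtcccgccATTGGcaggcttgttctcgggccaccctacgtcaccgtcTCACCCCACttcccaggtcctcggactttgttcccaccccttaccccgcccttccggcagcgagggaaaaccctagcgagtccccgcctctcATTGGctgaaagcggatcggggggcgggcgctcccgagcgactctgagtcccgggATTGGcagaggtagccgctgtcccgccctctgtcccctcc
Insig2, upstream start, chr1:121332540-121332839, minus strand: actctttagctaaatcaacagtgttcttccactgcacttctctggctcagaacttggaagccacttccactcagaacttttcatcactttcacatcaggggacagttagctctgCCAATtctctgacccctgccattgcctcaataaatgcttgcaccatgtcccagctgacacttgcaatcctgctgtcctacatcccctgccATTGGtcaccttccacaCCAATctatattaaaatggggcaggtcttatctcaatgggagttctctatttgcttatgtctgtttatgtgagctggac
Insig2, middle start, chr1:121327975-121328274, minus strand: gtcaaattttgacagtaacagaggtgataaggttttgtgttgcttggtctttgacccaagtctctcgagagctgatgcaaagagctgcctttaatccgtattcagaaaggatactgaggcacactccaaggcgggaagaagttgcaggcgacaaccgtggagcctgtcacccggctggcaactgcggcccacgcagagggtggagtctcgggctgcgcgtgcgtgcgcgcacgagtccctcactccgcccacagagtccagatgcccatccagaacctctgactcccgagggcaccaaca
Insig2, downstream start, chr1:121327629-121327928, minus strand: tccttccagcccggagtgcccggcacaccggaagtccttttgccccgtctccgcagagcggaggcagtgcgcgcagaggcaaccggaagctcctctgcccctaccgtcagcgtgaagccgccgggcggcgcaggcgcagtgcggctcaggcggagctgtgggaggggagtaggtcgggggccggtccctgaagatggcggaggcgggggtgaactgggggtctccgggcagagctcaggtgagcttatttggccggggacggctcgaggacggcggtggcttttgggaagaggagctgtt

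In the Hmgcs1 window TCACNCCAC was matched once, as TCACCCCAC, with its first base 137 bases before the start, and CCAAT was matched 4 times, each on the other strand as ATTGG. The upstream Insig2 window held 3 matches to CCAAT, and the middle and downstream windows held none to any of the 3 motifs. Among all 32851 windows, TCACNCCAC was found in 1.24%, CCAAT in 37.4% and AGGTCA in 16.3%. Windows were at hand for 24 of the 29 genes, and those missing were Fdft1, Fdps, Soat2, Sqle and Stard4. CCAAT occurred in at least 1 window of 22 of the 24 genes, TCACNCCAC in Hmgcs1 alone of these 24, and AGGTCA in Dhcr7, Hmgcs1 and Insig1. The 24 genes had 30 windows. Counted by window, as for the 32851, CCAAT was in 22 of these 30, AGGTCA in 5 and TCACNCCAC in 1. A match describes the letters of a window and does not show binding, and other forms of the sterol regulatory element were not searched for.

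The groups overlapped for the uptake and transport genes. Mylip encodes the ubiquitin ligase IDOL, which marks lipoprotein receptors for degradation. It stood at 11.4, 11.0 and 8.61 CPM in PX-478 and at 13.2, 8.76, 9.52 and 11.0 CPM in saline, with a log2 fold change of -0.04 (95% interval -0.56 to 0.49). Tmem97, an endoplasmic reticulum protein that binds the lysosomal cholesterol exporter and is induced by SREBP, stood at 17.6, 24.3 and 21.7 CPM in PX-478 and at 21.0, 19.4, 23.7 and 17.5 CPM in saline. Stard4, a sterol carrier of the cytosol, was low, at 1.96 to 3.18 CPM in PX-478 and 1.69 to 5.22 CPM in saline. Its log2 fold change was -0.40 with an interval of -1.40 to 0.61.

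The esterifying enzymes differed in level. Soat2, the form of hepatocytes, stood at 157, 94.0 and 99.3 CPM in PX-478 and at 173, 125, 43.4 and 73.4 CPM in saline, with a log2 fold change of 0.17 (SE 0.42). Soat1, the form of macrophages and most other cells, stood at 2.65, 2.19 and 1.96 CPM in PX-478 and at 3.71, 2.60, 4.56 and 4.39 CPM in saline. For Soat1 only saline replicate 2 lay below a PX-478 library, and the log2 fold change of -0.75 had a 95% interval of -1.59 to 0.09 (unadjusted p = 0.0744 and adjusted p = 0.736 by edgeR). Soat1 had 29 to 38 reads in PX-478 libraries and 30 to 70 in saline libraries, which limits the precision. Per kilobase of exon, Soat2 was 163 to 225 times Soat1 in PX-478 and 36.1 to 182 times in saline.

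Of 12 markers of Kupffer cells and macrophages, 11 had negative log2 fold changes, with a median of -0.51, and C1qb was at 0.47. At an unadjusted p under 0.05 there were 5 (41.7%, beside 6.97% of all genes tested), 4 did not overlap between the groups (33.3%, beside 8.59%), and none passed adjustment in edgeR's test. Their summed level was 338 to 467 CPM in PX-478 and 369 to 712 CPM in saline, and none of the 12 was at 0 in any library. The part of macrophage content in the Soat1 values was not tested. Hepatocyte markers had a median of -0.36 over 11 genes, with 9 negative. Sinusoidal endothelial markers had a median of 0.44 over 8 genes (301 to 392 CPM summed in PX-478, 247 to 330 in saline), stellate and fibroblast markers 0.15 over 8 (147 to 336 and 184 to 227) and cholangiocyte markers -0.28 over 6 (79.0 to 133 and 76.3 to 111). Lymphocyte markers were near 0, with 1.46 to 3.25 CPM summed in PX-478 and 2.26 to 7.52 CPM in saline over the 3 of 7 that could be tested.

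**Figure D4:**
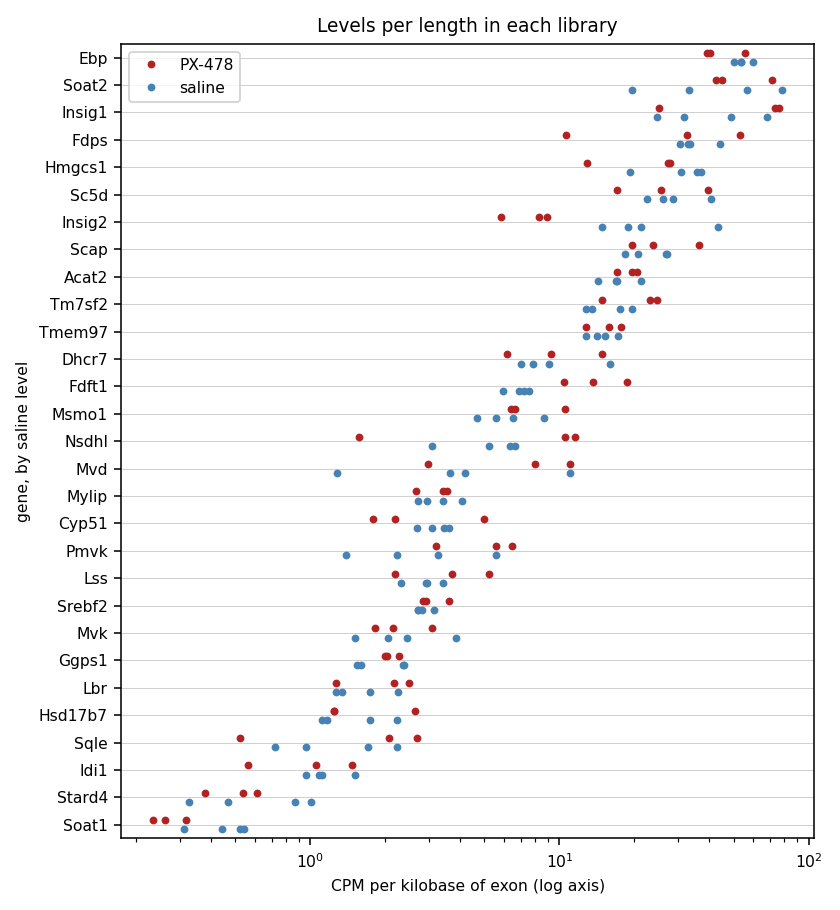
CPM per kilobase of exon in each library (points, log axis) for each gene, ordered by the saline mean from the top, with PX-478 points above saline points. Means in saline livers run from below 1 CPM per kilobase for Soat1 and Stard4 to above 40 for Ebp, Soat2 and Insig1.

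Per kilobase of exon in the GENCODE annotation, the levels of the genes spanned from 0.455 to 54.2 CPM in saline livers. In PX-478 Insig1 and Soat2 lay above Ebp, while in saline Ebp led at 54.2 CPM per kilobase (44.9 in PX-478). It was followed in saline by Soat2 (52.9 in PX-478, 47.0 in saline), Insig1 (58.2 and 43.3) and Fdps (32.1 and 35.2). The SDs of these means overlap between neighbours in that order. At the low end stood Soat1 at 0.271 in PX-478 and 0.455 in saline, Stard4 at 0.508 and 0.666, Idi1 at 1.03 and 1.17, and Sqle at 1.76 and 1.40. Insig2 was 7th in saline, at 7.68 in PX-478 and 24.6 in saline, and Fdft1 13th, at 14.2 and 6.90. The place of Fdps is uncertain, given the exon bases it shares with Gm43738. The lengths are the union of basic transcripts, so genes with long alternative exons are set too low.

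Genes around the sterol route were compared in 6 companion lists, with none of their genes past adjustment in edgeR's test. Their shares are to be read beside 6.97% of all genes tested at an unadjusted p under 0.05 and 8.59% without overlap. Among 12 SREBP-responsive genes outside the sterol route, 10 had positive log2 fold changes, with a median of 0.31 and 2 at an unadjusted p under 0.05 (16.7%). Without PX-478 replicate 2 the median was 0.02, and without PX-478 replicate 3 or saline replicate 1 it was 0.52 and 0.49. Acss2, acetyl-CoA synthetase of the cytosol, stood at 64.5, 91.8 and 40.5 CPM in PX-478 and at 45.6, 38.2, 18.1 and 29.7 CPM in saline (log2 fold change 1.00, SE 0.32). Srebf1, which encodes SREBP-1, the regulator of fatty acid synthesis, stood at 424, 282 and 505 CPM in PX-478 and at 328, 249, 153 and 239 CPM in saline (log2 fold change 0.74, SE 0.27). For both, 1 saline library lay within the PX-478 range. Srebf1 was highest in PX-478 replicate 3, the library in which most sterol enzymes were lowest of their group.

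A list of LXR, the oxysterol receptor, its targets and the receptor genes Nr1h4 and Rxra, which are not counted among LXR targets, gave 8 of 11 positive values, with a median of 0.11 and 3 at an unadjusted p under 0.05 (27.3%). After Srebf1 the smallest p belonged to Nr1h4, which encodes the bile acid receptor FXR, at 392 ± 102 CPM in PX-478 and 257 ± 58.6 CPM in saline, with overlap between the groups. Intracellular sterol transport genes had a median of -0.11, with 6 of 14 positive, and 5 of 14 had an unadjusted p under 0.05 (35.7%, beside 6.97% of all genes). Of the 14, 6 did not overlap between the groups (42.9%, beside 8.59%), 4 higher and 2 lower in PX-478. The median was 0.03 without saline replicate 2 and 0.01 without saline replicate 4. Scp2, the sterol carrier protein of peroxisomes, stood at 1539, 1407 and 1558 CPM in PX-478 and at 2201, 2118, 2520 and 1963 CPM in saline (log2 fold change -0.55, SE 0.20). Osbpl2, an oxysterol-binding protein relative, stood at 22.9, 23.3 and 28.3 CPM in PX-478 and at 17.2, 15.9, 17.5 and 18.8 CPM in saline (log2 fold change 0.52, SE 0.19).

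**Figure D5:**
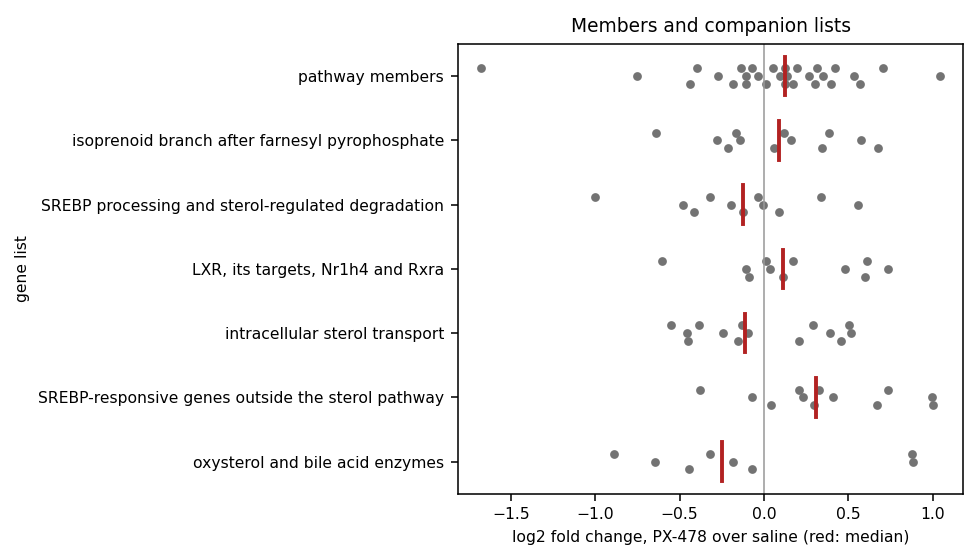
Difference of PX-478 from saline on the log2 scale for every tested gene (points) of the pathway and of the 6 companion lists, with list medians (red). Medians run from -0.25 for oxysterol and bile acid enzymes to 0.31 for SREBP-responsive genes outside the sterol route, which is 0.02 without PX-478 replicate 2.

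The machinery that processes SREBP and degrades sterol-regulated proteins gave 3 of 11 positive values and a median of -0.12. Its smallest p values belonged to Rnf145, a sterol-sensing ubiquitin ligase, at 36.5, 36.3 and 28.3 CPM in PX-478 and 21.5, 23.4, 21.4 and 25.2 CPM in saline, and to Mbtps1, the protease that first cuts SREBP in the Golgi, at 59.8, 50.5 and 66.2 CPM in PX-478 and 48.3, 47.9, 41.1 and 48.6 CPM in saline. Neither gene overlapped between the groups, with log2 fold changes of 0.56 and 0.34 and adjusted p of 0.568 and 0.736. The isoprenoid branch, which uses farnesyl and geranylgeranyl pyrophosphate for ubiquinone, dolichol and protein prenylation, gave 7 of 12 positive values with a median of 0.09 and 0 at an unadjusted p under 0.05. Its median was -0.03 without PX-478 replicate 3 and -0.02 without saline replicate 2. Its smallest p values belonged to Coq2 of ubiquinone synthesis at a log2 fold change of 0.35 and to Pggt1b, a prenyltransferase subunit, at -0.64. Oxysterol and bile acid enzymes gave 2 of 8 positive values and a median of -0.25. Hsd3b7, an early enzyme of bile acid synthesis, stood at 365, 434 and 351 CPM in PX-478 and at 698, 598, 577 and 526 CPM in saline (log2 fold change -0.65, SE 0.19), and Cyp27a1, sterol hydroxylase of mitochondria, at 1051, 632 and 945 CPM in PX-478 and at 432, 540, 258 and 679 CPM in saline (log2 fold change 0.88, SE 0.30).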

How the data were processed

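Liver mRNA of 7 mice was analysed, grouped by sample title. The authors deposited whole-number read counts per gene, and per the submitters' processing notes featureCounts, edgeR and mm10 were used, without versions. No aligner is given in the sources used here. Genes of low level had been removed before deposit, since all 14889 exceeded 0.5 CPM in at least 2 of the 14 count columns. Each sample has 2 columns that differed by less than the sampling noise (chi-square per gene 0.291 to 0.765, against 49.2 to 146 between libraries of a group). They were counted as 1 sample, as their rounded mean.

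Genes were filtered with filterByExpr (13693 tested), scaled by TMM and compared with edgeR 4.0.16 (quasi-likelihood F test, robust, no covariates), adjusted by Benjamini-Hochberg over all genes, with a threshold of 0.05. SEs were derived from the log2 fold change and the F statistic. DESeq2 1.42.0 and limma 3.58.1 were alternatives, beside other scalings, filters, single columns, a replicate block and leaving out each library. The test was tried on simulated data. The pathway genes and lists were chosen with earlier results of these data known. All 29 pathway genes are named, and of each companion list the 2 with the smallest p. Beyond the diet and the injections, nothing in the labels tells how the animals were kept or handled. The p-values cover the spread between these samples, which may be partly technical.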

Additional observations from a re-analysis of the deposited data

How the results depend on the processing

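Over 19 alternatives the log2 fold changes of Fdft1 and Insig2 kept their direction, and both passed the adjusted threshold with DESeq2 alone, which called 2 of the 29 genes. Over all genes DESeq2 gave 46 higher and 37 lower, limma-voom gave 0 lower, and 4 were higher with no scaling beyond library size. That setting moved the median of all genes to 0.15 and gave log2 fold changes above 0 to Mvk (0.069), Idi1 (0.031), Fdps (0.13), Cyp51 (0.14), Sc5d (0.12) and Mylip (0.13), none of them above that median. Dhcr7 was at -0.0094 with limma-voom, and Idi1 at 0.049 with the first column alone. Leaving out each library in turn gave 0 to 4 genes higher and 1 to 3 lower over all genes. In each of these fits 0 of the 29 passed adjustment. Of the 29, 14 to 23 had a positive log2 fold change, beside 48.1% to 50.3% of all genes tested. At an unadjusted p under 0.05 there were 2 to 6 of the 29, beside 3.94% to 8.50% of all genes. In these fits some log2 fold changes crossed 0, from -0.69 to 0.15 for Cyp51, -0.37 to 0.34 for Dhcr7, -0.71 to 0.28 for Fdps, -0.0054 to 0.20 for Ggps1, -0.33 to 0.34 for Hsd17b7, -0.53 to 0.11 for Idi1, -0.30 to 0.23 for Mvk, -0.12 to 0.083 for Mylip, -0.46 to 0.14 for Sc5d, -0.095 to 0.37 for Scap, -0.095 to 0.53 for Soat2, -0.12 to 0.75 for Sqle and -0.059 to 0.17 for Tmem97. The causes were not tested.

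Samples of the same replicate number did not deviate together (correlations over 11574 genes of -0.047, -0.15 and -0.025). Pairs of unlike number ran from -0.12 to 0.28. Whether the numbers mark a shared batch cannot be told from so few pairs. With the replicate number as a block, 1 gene was higher and 2 lower over all genes, and 0 of the 29 passed adjustment. At an unadjusted p under 0.05 there were 3 of the 29, beside 5.25% of all genes tested in that fit. These were Hmgcs1 at -0.69, Fdft1 and Insig2. With the block, Hsd17b7 was at -0.067, Dhcr7 at -0.093 and Tmem97 at -0.022. Read depth limits genes such as Sqle, with 22 to 98 reads per library, and Soat1, with 29 to 70.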

Other observations

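Ratios between neighbouring steps were looked at after the values were seen and carry no test. Per kilobase of exon, Fdft1 was 0.576, 0.256 and 0.982 times Fdps in the PX-478 livers and 0.172, 0.226, 0.218 and 0.179 times in the saline livers. The Fdft1 transcript thus stood nearer to that of Fdps in every PX-478 liver than in any saline liver. The highest ratio, in PX-478 replicate 3, came with the lowest Fdps value, 15.4 CPM. Tm7sf2 was 9.88, 10.6 and 11.7 times Lbr in PX-478 and 8.68, 7.40, 10.1 and 13.8 times in saline, and these overlapped. Most exon bases of Fdps are shared with another annotated gene, Gm43738, so its level and the ratio to it are uncertain.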
